A study of Mus musculus with 105 samples.

Results

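The CCR4-NOT complex removes the poly(A) tails of cytoplasmic mRNAs, the first step in the decay of most messages. It holds a pair of nucleases, 1 of the Caf1 type (Cnot7 or Cnot8) and 1 of the Ccr4 type (Cnot6 or Cnot6l), on the large scaffold protein encoded by Cnot1. Cnot2 and Cnot3 form the NOT module of the complex, Cnot9 is an armadillo repeat subunit that receives RNA-binding proteins, and Cnot10 and Cnot11 form a module of their own at the other end of Cnot1. During meiotic maturation the oocyte is transcriptionally silent, so its proteins are made from stored maternal mRNAs, many of which are then deadenylated and lost. Btg4 is an adaptor that links CCR4-NOT to maternal mRNAs in maturing oocytes.

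The 10 genes described were Cnot6, Cnot6l, Cnot7 and Cnot8, here called catalytic, and Cnot1, Cnot2, Cnot3, Cnot9, Cnot10 and Cnot11, here called scaffold subunits. They were chosen by name and all 10 were found in each of the 3 deposited tables, of which the expression tables hold 20756 genes. Values came from mouse oocytes, as FPKM (fragments scaled to gene length and to the library's total) for ribosome footprints and mRNA, and in nucleotides (nt) for poly(A) tails. The groups were metaphase II (MII) oocytes of Btg4 knockout (KO) genotype, with 3 footprint, 2 mRNA and 2 tail libraries, and MII oocytes of Btg4 heterozygous (Het) genotype, with 3 footprint, 2 mRNA and 1 tail library. Wild-type (WT) oocytes gave single-oocyte footprints of 20 MII oocytes and 18 full-grown oocytes (FGO), and 1 tail library of each stage, the FGO tail library being labelled SN. Females were C57BL/6, aged 8 or 5 weeks, and had been given PMSG and hCG at 5 IU. The sources used here name neither the Btg4 allele nor the number of oocytes or animals behind a library, and the Het oocytes carry 1 mutant Btg4 allele, so they are not wild type.

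All 8 oocyte markers (Zp1, Zp2, Zp3, Gdf9, Bmp15, Ddx4, Dazl and Mos) were above 0 in every group. Of 13 follicle cell markers, 10 were above 0 in at least 1 MII oocyte and 12 in at least 1 FGO. Cyp19a1 averaged 13.1 FPKM in MII oocytes and 1.63 FPKM in FGO, and Foxl2, Kitl and Ptx3 were also higher in MII. Gja1 (1.09 FPKM in MII, 13.0 FPKM in FGO), Inha (0.238 and 10.6) and Hsd3b1 (0.232 and 7.11) went the other way. So did Amh, Fshr, Inhba, Star and Tnfaip6. The summed level of the 13 was 0 to 39.5 FPKM in MII oocytes and 0 to 116 FPKM in FGO. The same sum was 35.4 to 65.4 FPKM in KO against 15.8 to 65.4 FPKM in Het footprint libraries, and 8.48 to 8.67 FPKM in KO against 14.1 to 14.9 FPKM in Het mRNA libraries, and most of it was the granulosa gene Cyp19a1 (means of 40.3 FPKM in KO and 42.0 FPKM in Het footprints, and of 7.51 FPKM in KO and 12.9 FPKM in Het mRNA), while Amh and Foxl2 were at 0 in all 10 of these libraries. Of 8 blood and immune markers, 5 were above 0 in at least 1 MII oocyte and 8 in at least 1 FGO, summing to 0 to 127 FPKM in MII oocytes and 0 to 857 FPKM in FGO, and the sum was at most 3.64 FPKM in KO and 20.4 FPKM in Het footprints, and at most 14.7 FPKM in KO and 0.099 FPKM in Het mRNA. Recovered footprint reads put the depth at 9.33 to 36.5% of the deepest oocyte in MII oocytes and at 23.2 to 100% in FGO, and the part of these differences in the results was not tested. MII oocytes 2 and 4 correlated better with FGO than with the other MII oocytes (median Spearman rho across genes of 0.594 and 0.597 against 0.564 and 0.545), so results in single oocytes are also given without them. Btg4 itself was lower in KO, with footprints of 907 to 1148 FPKM in KO libraries and 6134 to 7009 FPKM in Het libraries, and was listed above 0 in every KO library.

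Single WT oocytes show how the ribosome load of the subunit messages differs between MII and the full-grown stage. Cnot7, Cnot8 and Cnot6l were far higher in MII oocytes. On the scale of mean FPKM + 1, Cnot6 and the 6 scaffold genes lay within about 2-fold of their FGO level. With medians in place of means, Cnot1 (log2 ratio -1.29), Cnot9 (-1.58) and Cnot10 (-1.49) were more than 2-fold lower. Cnot2 (1.07) and Cnot3 (1.05) were then more than 2-fold higher, while Cnot6 (0) and Cnot11 (0.82) were not. Cnot7, a Caf1-type nuclease gene, had footprints with a lowest, median and highest value of 134, 728 and 1311 FPKM in MII oocytes, against 0, 2.43 and 16.7 FPKM in FGO. Every MII oocyte was above every FGO, and 8 of 18 FGO were at 0. The means were 681 ± 343 FPKM in MII and 4.20 ± 5.27 FPKM in FGO (SD between oocytes, n = 20 and 18), a log2 ratio of 7.04 on the FPKM + 1 scale. The second Caf1-type gene, Cnot8, had 71.8, 221 and 349 FPKM in MII oocytes against 0, 1.71 and 36.5 FPKM in FGO. Here too the stages did not overlap, and the log2 ratio was 5.07. Recovered reads behind Cnot8 were 11 to 83 per MII oocyte and 0 to 18 per FGO. Over all 8818 genes compared, 27.8% were at least 2-fold higher in MII and 2.18% had every MII oocyte above every FGO.

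Cnot6l, the Ccr4-type nuclease that led its pair in mean level at both stages, had 11.4, 44.0 and 117 FPKM in MII oocytes against 0, 6.87 and 64.7 FPKM in FGO (lowest, median and highest). The stages overlapped, with the MII oocyte higher in 94.7% of pairs of 1 MII oocyte and 1 FGO. The log2 ratio was 2.32, and 2.82 without FGO 3, which held the highest FGO value. Its relative Cnot6 was near the floor, above 0 in 4 of 20 MII oocytes and 8 of 18 FGO, with means of 1.45 ± 3.64 FPKM in MII and 0.639 ± 0.851 FPKM in FGO. Its log2 ratio of 0.58 became 0.11 without MII oocyte 7, which held the highest value, so a stage difference in Cnot6 was not detectable at this depth.

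Among the scaffold genes, Cnot2 was the only one at least 2-fold higher on the main scale. It measured 3.24, 37.3 and 155 FPKM in MII oocytes against 1.52, 17.2 and 68.7 FPKM in FGO (lowest, median and highest), a log2 ratio of 1.03. The stages overlapped, and MII oocytes 2 and 4 held the top values. Without those 2 oocytes the ratio was 0.71, and with each oocyte scaled to its median it was -0.13, so Cnot2 kept no fixed direction across scalings. Its NOT-module partner Cnot3 averaged 19.0 ± 10.4 FPKM in MII and 12.1 ± 10.4 FPKM in FGO, a log2 ratio of 0.61. Cnot11 averaged 26.8 ± 15.2 FPKM in MII and 14.5 ± 10.7 FPKM in FGO, a ratio of 0.84. Cnot3 and Cnot11 also changed sign with median scaling, to -0.51 and -0.42, where the median of all genes was -1.24 in place of -0.18, so Cnot2, Cnot3 and Cnot11 stayed above that median.

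The remaining 3 scaffold genes had lower means in MII. Cnot1, the backbone of the complex, averaged 3.33 ± 4.05 FPKM in MII and 7.31 ± 6.04 FPKM in FGO, a log2 ratio of -0.94. It passed 2-fold lower without MII oocytes 2 and 4, at -1.29. Cnot10 was at 0 in 15 of 20 MII oocytes and 2 of 18 FGO, with a ratio of -0.70, and of -1.25 without those 2 oocytes. Cnot9 was at 0 in 14 of 20 MII oocytes and 7 of 18 FGO, with a ratio of -0.58. Both rest on few reads, 0 to 6 per MII oocyte and 0 to 22 per FGO for Cnot10, and 0 to 4 per MII oocyte and 0 to 10 per FGO for Cnot9. The MII oocytes were also the shallower ones, so these differences were not resolved at this depth.

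**Figure D1:**
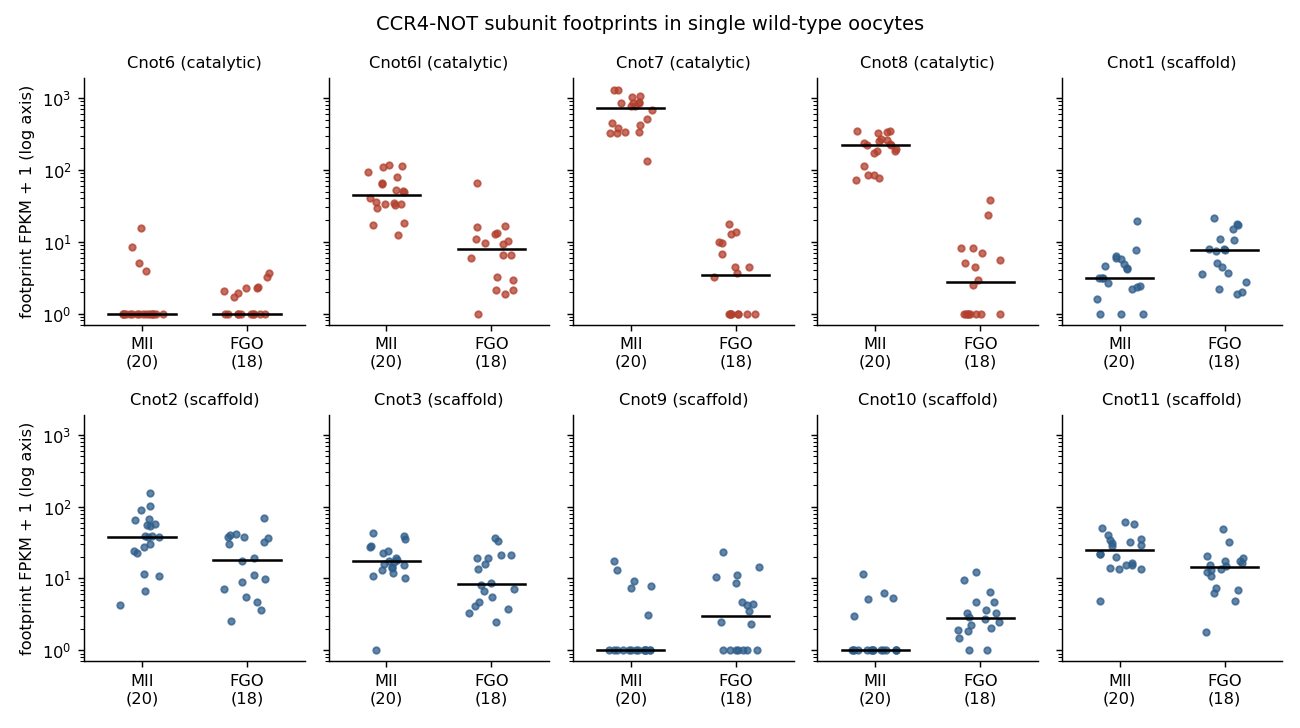
Footprint FPKM + 1 on a log axis for each subunit in 20 single MII and 18 single FGO wild-type oocytes, 1 point per oocyte with the median as a bar, catalytic genes in red and scaffold genes in blue. Cnot7 and Cnot8 separate the stages completely, Cnot6l largely, and the other 7 genes overlap.

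By class, 3 of 4 catalytic genes and 1 of 6 scaffold genes were at least 2-fold higher in MII, and none of the 10 was 2-fold lower (31.6% of all genes were). The median log2 ratio was 3.69 over the catalytic genes, 0.02 over the scaffold genes and -0.18 over all genes. With median scaling, where 1210 of 9254 genes were at least 2-fold higher and 5196 lower, Cnot1 (-1.76), Cnot9 (-1.55) and Cnot10 (-1.33) were 2-fold lower, and the class medians were 2.65 for catalytic and -0.92 for scaffold genes beside -1.24 for all genes. With pseudocount 0.1 Cnot1 (-1.11) and Cnot10 (-1.02) were 2-fold lower and Cnot6 (1.07) was 2-fold higher. By the ratio of medians Cnot1, Cnot9 and Cnot10 were 2-fold lower, and Cnot2 and Cnot3 were 2-fold higher. Without MII oocytes 2 and 4 the class medians were 3.76 and -0.05. Using the 19 MII oocytes and 9 FGO that listed no hemoglobin gene, they were 4.54 and 0.12. The 4 catalytic genes held 59.8 to 96.2% of the summed footprint FPKM of the 10 genes in MII oocytes (median 91.1%) and 3.48 to 55.6% in FGO (median 16.9%). The ranges of the stages did not overlap, and the 2 lowest MII shares, 59.8% and 71.3%, were those of oocytes 4 and 2, while the other 18 lay between 86.4 and 96.2%. Since the labels name no animals, each stage counts as 1 sample and these differences have no test.

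**Figure D2:**
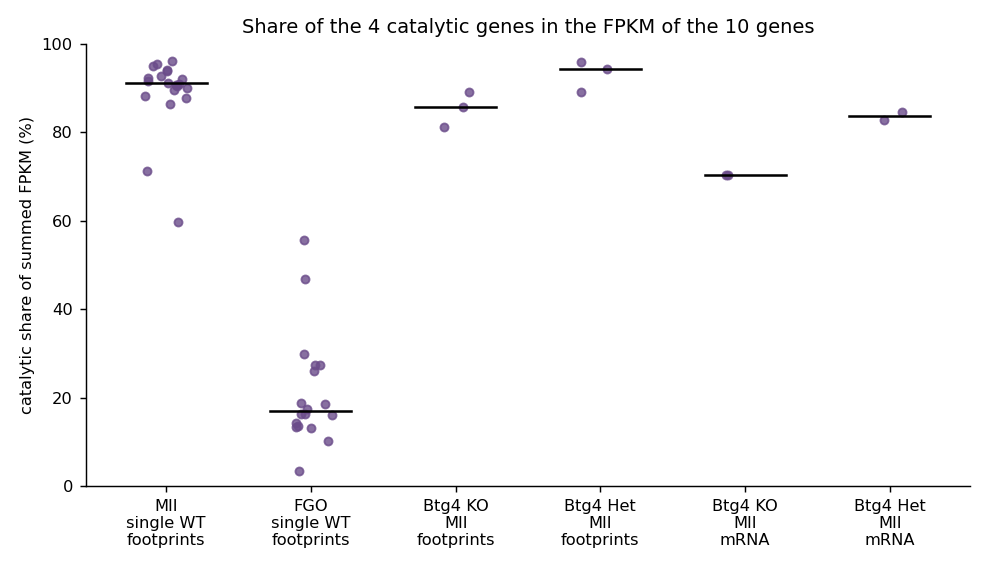
Share of the summed FPKM of the 10 subunits held by Cnot6, Cnot6l, Cnot7 and Cnot8, 1 point per oocyte or library with the median as a bar. The share is 59.8 to 96.2% in single MII oocytes against 3.48 to 55.6% in single FGO, and 70.4% in both Btg4 KO mRNA libraries against 82.8 and 84.6% in Het.

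The order of levels differed between the stages. In MII oocytes mean FPKM, which is per length, ranked in the order Cnot7, Cnot8, Cnot6l, Cnot2, Cnot11, Cnot3, Cnot1, Cnot9, Cnot6 and Cnot10. Only the steps from Cnot7 to Cnot8, from Cnot8 to Cnot6l and from Cnot3 to Cnot1 were larger than the summed SDs of the 2 neighbours. Cnot7 was above Cnot8 in 19 of 20 MII oocytes, the exception being oocyte 4, and Cnot8 above Cnot6l in 20 of 20. In FGO the order was Cnot2, Cnot11, Cnot3, Cnot6l, Cnot1, Cnot8, Cnot9, Cnot7, Cnot10 and Cnot6, and no step between neighbours exceeded their summed SDs.

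Over all 38 oocytes, the genes whose footprints ranked oocytes most like Cnot7 were Oosp1 (Spearman rho 0.958), Zfp957 (0.953), E330034G19Rik (0.952), Ccdc117 (0.949) and Rbbp7 (0.948), out of 2893 genes compared. Cnot8 stood at rank 27 with 0.935. These correlations span both stages and so carry the stage difference and the depth difference that goes with it. Within the 20 MII oocytes alone rho with Cnot7 was 0.838 for Cnot8 and 0.874 to 0.907 for the other 5. Those 5 were picked over all 38 oocytes, these 20 included, so high values within MII are partly built in. Summed FPKM over all genes also ran from 144559 to 598538 between MII oocytes, and its part in these values was not tested.

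The Btg4 mRNA libraries show the level of the subunit messages in MII oocytes of Btg4 KO and Het genotype. Btg4 mRNA itself was at 1754 and 2345 FPKM in KO against 3293 and 4774 FPKM in Het (replicates 1 and 2). Its log2 change of -0.97 (limma adjusted p = 0.0889) did not pass, and Btg4 protein was not measured. All 4 catalytic genes had estimates below 0 in KO and all 6 scaffold genes had estimates above 0. Of the estimates of all genes, 55.9% were above 0. The signs of Cnot2, Cnot3, Cnot11 and Cnot6l turned in some alternatives, as given below. In the main fit 1 of the 10, Cnot9, passed the test. With replicate number added to the fit as a block, Cnot1, Cnot7, Cnot8, Cnot9 and Cnot10 passed. In that fit 3033 of 8865 genes rose and 1553 fell, and the labels do not say what the mRNA numbers share. Cnot9 mRNA measured 31.7 and 27.8 FPKM in KO against 10.7 and 11.4 FPKM in Het (replicates 1 and 2). Both KO libraries were above both Het libraries. In the limma fit Cnot9 rose by a log2 change of 1.35 (SE 0.32, adjusted p = 0.0202), in a comparison where 18.9% of 8865 genes rose and 0.62% fell. Cnot9 did not pass under either rescaling, with an adjusted p of 0.0525 with quantile normalization and 0.0601 with median scaling (log2 change 0.94), nor with no filter on low values (0.0571), without KO replicate 1 (0.128) or without KO replicate 2 (0.0898). Its adjusted p ran from 0.00278 to 0.128 over the 9 alternatives. Cnot9 overlaps Usp37 and strand use is not stated, so reads of the 2 genes may be mixed. FPKM are relative to each library's total, so fewer cells, less RNA per cell and a change in the rest of the RNA pool cannot be told apart. With quantile normalization 1104 genes rose and 698 fell, and with median scaling 1018 rose and 841 fell, where 1677 rose and 55 fell on the deposited values.

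The Caf1-type pair had the lowest mRNA estimates of the 10 genes. Cnot7 mRNA was at 411 and 333 FPKM in KO against 639 and 606 FPKM in Het. The genotypes did not overlap, but the log2 change of -0.75 (SE 0.29, limma adjusted p = 0.111) did not pass. Cnot8 mRNA was at 113 and 65.1 FPKM in KO against 197 and 135 FPKM in Het. These did not overlap either, with a log2 change of -0.92 (SE 0.37, limma adjusted p = 0.119). Cnot8 lay at percentile 3.34 and Cnot7 at percentile 8.37 of the changes of all genes. With median scaling Cnot8 passed (log2 change -1.33), the 1 subunit called in that setting. With the replicate block both Cnot8 (limma adjusted p = 0.00694) and Cnot7 (limma adjusted p = 0.0134) passed. Without Het replicate 2 the Cnot8 change was -1.19. The Ccr4-type genes were nearer to 0. Cnot6 mRNA measured 5.22 and 4.73 FPKM in KO against 7.92 and 6.43 FPKM in Het, without overlap (log2 change -0.45). Cnot6l mRNA measured 41.1 and 29.7 FPKM in KO against 59.2 and 33.3 FPKM in Het, with overlap (log2 change -0.34). Neither passed the test.

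Of the other scaffold messages, Cnot1 was at 8.38 and 7.69 FPKM in KO against 4.31 and 3.48 FPKM in Het (log2 change 0.89, limma adjusted p = 0.115). Cnot10 was at 5.23 and 4.29 FPKM in KO against 2.61 and 2.10 FPKM in Het (log2 change 0.78, limma adjusted p = 0.151). For both genes the KO libraries lay above the Het libraries, as did those of Cnot11 (log2 change 0.36). Cnot3 and Cnot2 overlapped between genotypes, with log2 changes of 0.15 and 0.07. Over all genes, 38.9% had every KO library above every Het library and 22% the reverse. Among the subunits these were 4 genes, Cnot1, Cnot9, Cnot10 and Cnot11, and 3 genes, Cnot6, Cnot7 and Cnot8.

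The class medians of the mRNA change were -0.60 over the catalytic and 0.57 over the scaffold genes, with 0.14 over all genes. The signs of Cnot2, Cnot3 and Cnot11 changed with the scaling, which moved the median of all genes to -0.22 (quantile) and -0.27 (median scaling), and that of Cnot6l without Het replicate 1. In each of the 9 alternatives run, scaling and left-out libraries included, all 4 catalytic changes lay below all 6 scaffold changes. Dropping the filter or adding the replicate block left the estimates unchanged, and median scaling shifted all genes alike. These settings could therefore not change the order. Without Het replicate 1 the classes nearly met, with Cnot6l at 0.070 and the lowest scaffold gene, Cnot3, at 0.112. The 4 catalytic genes held 70.4% of the summed mRNA FPKM of the 10 genes in both KO libraries, against 82.8 and 84.6% in the Het libraries.

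**Figure D3:**
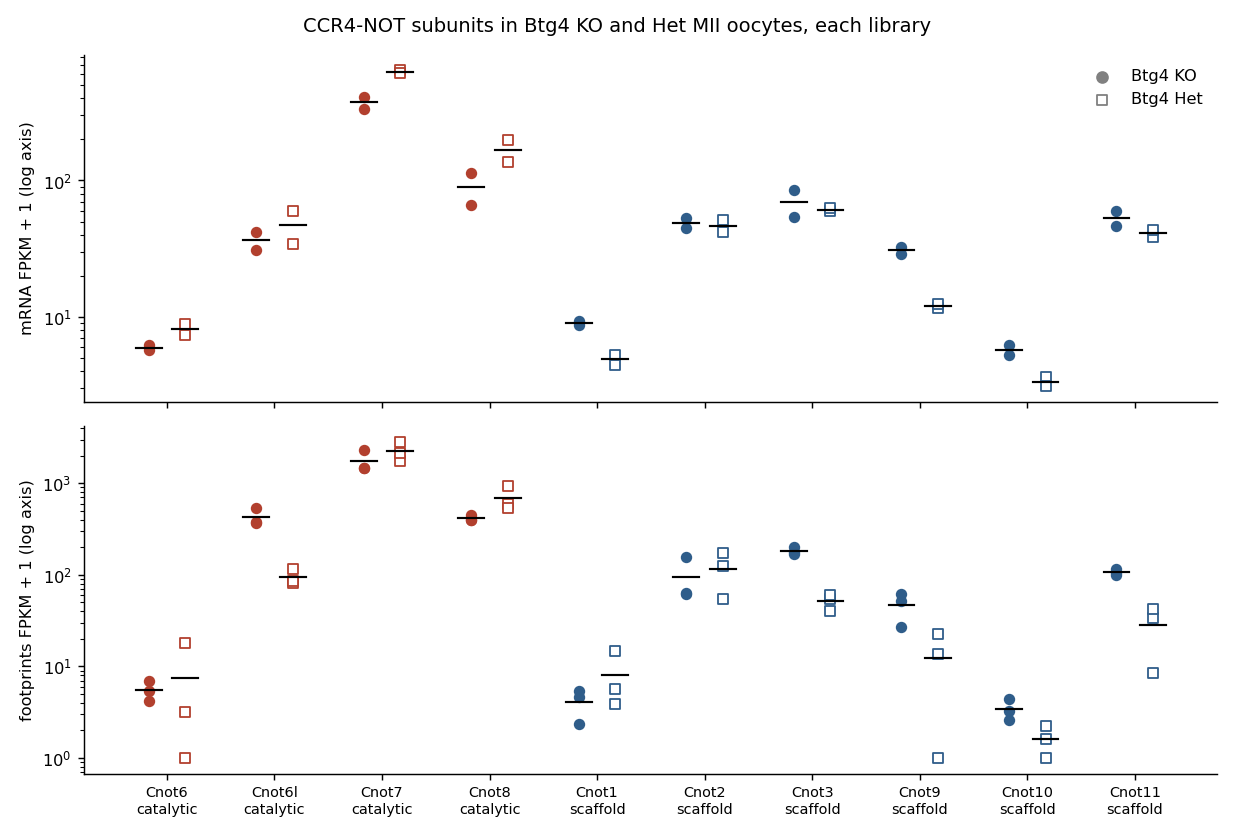
FPKM + 1 on a log axis of each subunit in every Btg4 MII library, mRNA above and footprints below, KO as filled circles left of Het as open squares, with bars at group means. In footprints the 3 KO libraries of Cnot6l (364 to 533 FPKM) and Cnot3 (167 to 199 FPKM) stand clear of the Het libraries (80.7 to 114 and 39.5 to 59.1 FPKM).

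Footprints of the same genotypes did not divide by class. Cnot6l and Cnot3, 1 gene of each class, rose in KO in the fit without the replicate block, and with the block only Cnot6l did. No subunit fell, 0 of them even at an unadjusted p under 0.05 in limma. Cnot6l footprints measured 364, 533 and 377 FPKM in KO against 114, 80.7 and 83.5 FPKM in Het (replicates 1, 2 and 3). Every KO library was above every Het library. In the limma fit Cnot6l rose by a log2 change of 2.18 (SE 0.32, adjusted p = 0.0227), where 3.21% of 8526 genes rose and 0.328% fell, and the median change of all genes was 0.27. Cnot3 footprints measured 178, 167 and 199 FPKM in KO against 53.4, 59.1 and 39.5 FPKM in Het. Again the genotypes did not overlap. Cnot3 rose by 1.84 (SE 0.33, adjusted p = 0.0360, limma), and lost its call with the replicate block (adjusted p = 0.05001). The adjusted p of Cnot6l was 0.0333 with the block and 0.0938 with median scaling, which also left Cnot3 above the threshold at 0.147. Without any 1 of the 3 KO libraries no gene at all passed in limma (1199 to 1315 were below an unadjusted p of 0.05), and the adjusted p was 0.0966 to 0.115 for Cnot6l and 0.130 to 0.162 for Cnot3. Without Het replicate 2 or 3 the adjusted p was 0.0562 and 0.0625 for Cnot6l and 0.0609 and 0.0794 for Cnot3. Without Het replicate 1 the values were 0.0348 for Cnot6l and 0.0681 for Cnot3.

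A further 3 scaffold genes had KO footprints above all Het libraries without passing the test. Cnot11 measured 97.3, 116 and 104 FPKM in KO against 32.6, 41.5 and 7.40 FPKM in Het (log2 change 2.22, SE 0.65, limma adjusted p = 0.132). Cnot9 measured 26.2, 51.0 and 60.2 FPKM in KO against 12.7, 21.3 and 0 FPKM in Het (log2 change 2.72, SE 1.17, limma adjusted p = 0.282). Het replicate 3, the shallowest of the 6 libraries at 38.9% of the deepest, held the lowest value of both genes. Without it the log2 change was 1.34 for Cnot9 and 1.496 for Cnot11. Cnot10 rested on 2 or 3 reads per KO library and 0 or 1 read per Het library, and its log2 change of 1.12 was not resolved at that depth. With Cnot6l and Cnot3 these make 5 of 10 subunits with every KO library above every Het library, against 16.8% of all genes.

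The Caf1-type messages, which carry the highest footprint levels of the 10, did not share that direction. Cnot8 footprints measured 396, 452 and 395 FPKM in KO against 923, 594 and 531 FPKM in Het. All KO libraries were below all Het libraries, as for 7.69% of genes, and the log2 change was -0.68 (SE 0.31, limma adjusted p = 0.305). Cnot7 measured 1471, 2301 and 1480 FPKM in KO against 2826, 1730 and 2144 FPKM in Het, which overlap (log2 change -0.35, SE 0.32, limma adjusted p = 0.614). The 95% interval of the Cnot7 change ran from -1.10 to 0.39. Cnot1, Cnot2 and Cnot6 overlapped between genotypes, with log2 changes of -0.83, -0.30 and 0.48 and SEs of 0.75, 0.59 and 1.09.

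The makeup of the catalytic footprints differed between genotypes. Cnot7 and Cnot8 together held 83.1 to 83.7% of catalytic footprint FPKM in the KO libraries and 96.0 to 97.0% in the Het libraries, without overlap. In KO, mean footprint FPKM ranked Cnot7 first, then Cnot6l and Cnot8, which did not differ beyond their spread, then Cnot3. In Het the order was Cnot7, Cnot8, Cnot2 and Cnot6l, with Cnot2 and Cnot6l not differing beyond their spread.

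**Figure D4:**
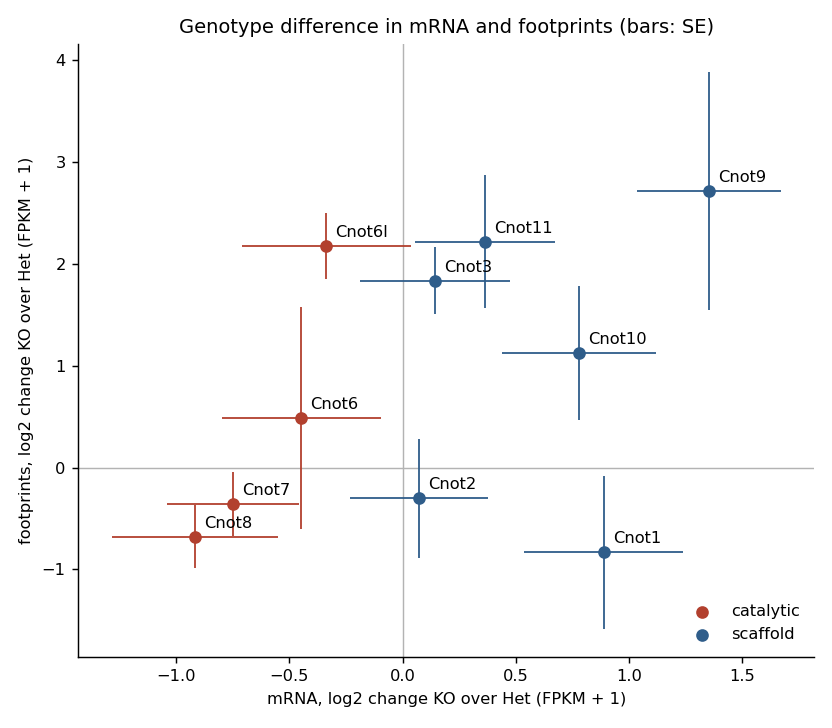
Log2 change of KO over Het in mRNA (horizontal) and footprints (vertical) for each subunit, on the FPKM + 1 scale with SE bars, catalytic genes in red and scaffold genes in blue. The catalytic genes lie left of 0 and the scaffold genes right of it in mRNA, while Cnot6l (2.18) lies among Cnot3 (1.84) and Cnot11 (2.22) in footprints.

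Translational efficiency, the footprint change beyond the mRNA change, was tested in 1 model over both assays, by its genotype-by-assay term. None of the 10 subunits passed in the limma fit, where 63 of 7382 genes rose (0.853%) and 33 fell (0.447%), and 2 subunits, Cnot6l and Cnot3, were below an unadjusted p of 0.05. Cnot6l, whose footprints rose in KO and whose mRNA change did not pass, had the highest estimate of the 10 at 2.51 (SE 0.53, limma adjusted p = 0.0614). It passed with quantile normalization, with no filter on low values and without footprint Het replicate 1. Cnot3 had 1.69 (SE 0.48, limma adjusted p = 0.150) and Cnot11 1.85 (SE 0.89, limma adjusted p = 0.406). Cnot7 and Cnot8 had 0.39 and 0.24, near the 0.24 median of all genes. As a level, the log2 ratio of mean footprint to mean mRNA, each as FPKM + 1, was 3.55 for Cnot6l in KO and 0.99 in Het. For Cnot7 it was 2.23 in KO and 1.84 in Het.

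Tail lengths in the single FGO library divided the subunits by class. The catalytic messages had tails of 34.53 nt (Cnot6), 35.66 nt (Cnot7), 35.97 nt (Cnot8) and 40.30 nt (Cnot6l). The scaffold messages had 48.64 nt (Cnot2), 51.63 nt (Cnot3), 53.26 nt (Cnot11), 57.02 nt (Cnot10), 60.68 nt (Cnot1) and 68.96 nt (Cnot9). Every catalytic tail was shorter than every scaffold tail. Among the 6353 genes with an FGO tail, whose median was 54.06 nt with quartiles at 45.25 and 63.25 nt, the catalytic genes stood at percentiles 5.45 to 13.6 and the scaffold genes at percentiles 34.3 to 85.3. This is 1 library, so the difference has no replicate check, and its depth is unknown. Cnot6 had the shortest FGO tail of the 10, next to footprints whose stage difference was not detectable.

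**Figure D5:**
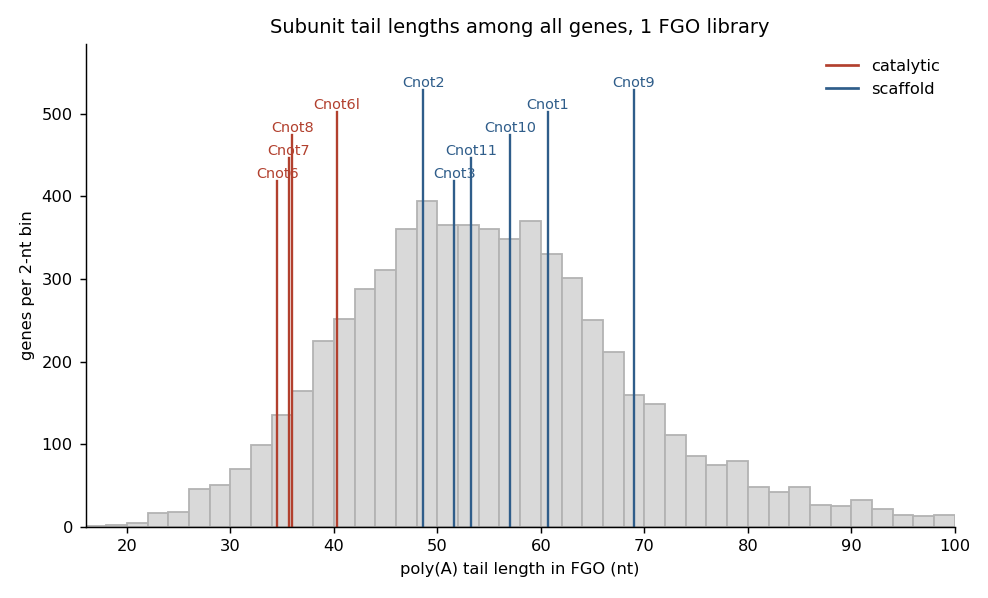
Histogram of poly(A) tail length (nt) in 1 FGO library over genes in 2-nt bins, with a line for each subunit, catalytic in red and scaffold in blue; 65 of 6353 genes lie beyond the axis at 100 nt. The 4 catalytic lines fall between 34.53 and 40.30 nt and the 6 scaffold lines between 48.64 and 68.96 nt.

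Few subunits had a tail value in MII oocytes. Of the 10, values were given for 1 in KO replicate 1 (among 867 genes), 4 in KO replicate 2 (among 1416), 2 in Het (among 598) and 0 in WT (among 229), so no subunit could be compared between WT MII and FGO. Of 224 genes with both WT tails, 22.3% were at least 20 nt longer and 31.2% at least 20 nt shorter in MII. Cnot3 was the 1 subunit with values in both genotypes, at 111.04 and 96.18 nt in KO against 71.12 nt in Het, and at 51.63 nt in WT FGO. Both KO values were above the Het value, and the difference of 32.49 nt (SE 11.0, limma adjusted p = 0.281, 95% interval -9.15 to 74.1) did not pass. Only the KO pair gives that fit its spread (1 residual degree of freedom), and it called 0 of 272 genes (0%), with 49 below an unadjusted p of 0.05. On the log2 scale it also called 0, with 51 below an unadjusted p of 0.05.

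In KO replicate 2, Cnot7 had a tail of 110.98 nt and Cnot11 one of 92.85 nt, against 35.66 and 53.26 nt in WT FGO. These and the KO values of Cnot3 stood at percentiles 87.4 to 94.3 of their libraries, in which the median gene differed from FGO by -15.56 nt (replicate 1) and -12.5 nt (replicate 2) over genes with both values. Cnot1 had a shorter tail, with 25.51 nt in KO replicate 2 against 60.68 nt in WT FGO. In Het, Cnot6l had 80.26 nt against 40.30 nt in WT FGO, a difference of 39.96 nt where the median over 580 genes was 20.45 nt. The authors' deposited table also has a merged KO value for Cnot9, 55.33 nt. These pairs differ in genotype as well as stage, and genes with an MII value are a small part of those with an FGO value.

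Footprints of most other deadenylases were also higher in MII oocytes. Of 8 genes 7 were compared and 5 were at least 2-fold higher in MII, with a median log2 ratio of 2.53, beside 27.8% of all genes and an all-gene median of -0.18. Pan2, the nuclease of the PAN2-PAN3 complex, averaged 87.5 ± 40.4 FPKM in MII and 1.13 ± 1.87 FPKM in FGO (log2 ratio 5.37). Angel2 averaged 91.3 ± 43.5 FPKM in MII and 1.88 ± 2.54 FPKM in FGO (5.00), and Noct, the nocturnin gene, 73.7 ± 34.9 FPKM in MII and 7.12 ± 9.32 FPKM in FGO (3.20). None of the 7 tested passed in KO mRNA or in KO footprints in limma. Below an unadjusted p of 0.05 in limma, 2 were higher and 1 lower in KO mRNA, and 1 was higher in KO footprints. Their mRNA changes ran from -0.90 to 1.21, and the median of -0.69 stood beside -0.60 for the catalytic subunits.

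Among 22 genes that recruit CCR4-NOT to mRNAs, 15 were compared in single oocytes, with 7 at least 2-fold higher in MII and 2 lower, beside 27.8% higher and 31.6% lower among all genes. Of the 7, Btg1, Samd4 and Zfp36l1 were above 0 in only 5, 3 and 7 of 20 MII oocytes. Their MII medians were 0, so these 3 differences were not resolved at this depth. Zfp36 was above 0 in 10 of 20 MII oocytes. Btg4 averaged 2056 ± 850 FPKM in MII and 12.3 ± 22.6 FPKM in FGO (log2 ratio 7.27). Nanos2, a germ cell RNA-binding protein gene, averaged 60.5 ± 73.9 FPKM in MII and 0.735 ± 3.12 FPKM in FGO (5.15). Tob2, of the same BTG/TOB family as Btg4, averaged 4.19 ± 8.12 FPKM in MII and 17.3 ± 14.6 FPKM in FGO (-1.82). In KO mRNA 2 of 17 rose, below the 18.9% of all genes that rose, and none fell in limma (1, Btg4, was lower at an unadjusted p under 0.05, and 0.62% of all genes fell). They were the BTG/TOB genes Tob1, up by 2.79 (limma adjusted p = 0.00216), and Btg2, up by 1.73 (limma adjusted p = 0.0251). In KO footprints 2 of 14 rose, beside 3.21% of all genes. The 1 that fell (0.328% of all genes fell) was Btg4. It is the gene targeted in KO, so its fall says nothing of recruiters as a group. Tob2 rose by 4.86 (limma adjusted p = 0.0202), with 54.8 to 75.5 FPKM in KO and 0 to 3.89 FPKM in Het. Btg2 rose (limma adjusted p = 0.00793), with 41.8 to 160 FPKM in KO, and was listed at 0 in all 3 Het libraries. Its translational efficiency rose by 4.73 (limma adjusted p = 0.0431).

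Of 6 proteins that associate with the complex, 2 were at least 2-fold higher in MII and 1 was lower, near or below the 27.8% and 31.6% of all genes. Tnks1bp1 had a log2 ratio of 2.18, Patl1 one of 1.58 and Eif4enif1, the 4E-T gene, one of -2.65. In KO footprints Cnot4, an E3 ubiquitin ligase bound only loosely to the mammalian complex, rose by 3.06 (SE 0.45, limma adjusted p = 0.0224), with 60.6 to 81.0 FPKM in KO and 4.90 to 10.7 FPKM in Het. Its mRNA change was -0.04, and its translational efficiency rose by 3.10 (limma adjusted p = 0.0431). This call, like that of Btg2, rests on only 2 mRNA libraries per genotype. Patl2 mRNA, of an oocyte Pat1 protein, rose by 1.28 (limma adjusted p = 0.0283), and its footprint change of -1.84 did not pass.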

How the data were processed

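Of 105 labelled samples, 53 were analysed from 3 deposited tables, and 52, embryos and Cnot6l mutants among them, were not analysed here. The members and gene lists were chosen with earlier results of these data known. FPKM per gene for footprints and Smart-seq2 mRNA, and tail lengths in nt (a score per gene from PacBio reads, 0 meaning no value), were used as deposited by the authors. The submitters' processing notes name the builds mm9 and hg19 and, without roles, STAR 2.5.3a, Bowtie2 2.2.2, Cufflinks 2.2.1, Trim Galore 0.4.2 and cutadapt 1.14. The sources used here do not say whether mRNA reads were counted by strand. In the GRCm38.p6 annotation 6 subunits overlap other protein-coding genes, so their values may share reads. Cnot7 overlaps Vps37a, Cnot9 Usp37, Cnot1 Setd6, Cnot3 Leng1, Cnot6l Gm52799 and Cnot8 Gm12248. Exact repeats (231) were dropped.

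Btg4 KO and Het were compared with limma 3.58.1 in R 4.3.3 (two-sided, trend) on log2(FPKM + 1), for genes averaging 1 FPKM or more, with Benjamini-Hochberg adjusted p below 0.05 over all genes as the threshold. This scale understates changes of low genes. Translational efficiency was the interaction over 10 libraries. Tails were fitted with limma in nt. Single oocytes were compared as log2 of (mean + 1) without a test. Reads per library were recovered from whole steps of low footprint FPKM and give relative depth only. The depth of mRNA and tail libraries is unknown. No separate animals or cultures are named for replicate libraries, so the spread behind each p-value may be technical. The fits reported have no replicate block. Footprint replicate numbers met the criterion for pairs, so a fit with the block is given where it changes a call: KO and Het libraries of the same number deviated together across genes (r = 0.255, 0.422 and 0.162 for replicates 1, 2 and 3). The labels do not say what the numbers share. Named genes were all 10 subunits, Btg4, each gene of the other lists past the threshold in mRNA or footprints, up to 3 per list by size in single oocytes, and the 5 most like Cnot7. The expression fits were also run on simulated data, with large changes in genes of high level and independent noise. The tail fit was run on simulated tails with a large shift. These runs do not cover small changes, genes of low level or paired libraries. Alternatives were the pseudocount (0.1), no filter, quantile and median scaling, the replicate block and each library left out, and a common total for single oocytes was added after seeing the data. Other steps used pandas 2.3.3, numpy 2.4.6 and matplotlib 3.10.9 in Python 3.11.15.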

Additional observations from a re-analysis of the deposited data

How the results depend on the processing

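Depth limits Cnot6, Cnot9 and Cnot10 footprints, and 2 mRNA libraries and 1 or 2 tail libraries per genotype limit the other tests. The cause of the changes below was not tested. In mRNA, where 1732 genes and 1 subunit passed, 560 genes and 0 subunits passed without a filter, and 0 subunits with quantile normalization. With the replicate block 4586 genes and 5 subunits (Cnot1, Cnot7, Cnot8, Cnot9 and Cnot10) passed. As for footprints, the labels do not say what the mRNA numbers share. With 2 mRNA libraries per genotype, r was 0.627 at the same number and, by construction, -0.627 at unlike numbers. Leaving out 1 library gave 0 to 2 subunits. Changes turned sign in mRNA for Cnot2 (-0.24 quantile, -0.34 median scaling, -0.072 to 0.21 without 1 library), Cnot3 (-0.10 quantile, -0.26 median scaling, -0.19 to 0.48 without 1 library), Cnot11 (-0.045 median scaling), Cnot6l (-0.74 to 0.070 without 1 library), Cnot4 (-0.23 to 0.15) and Tob2 (-1.28 to 0.44, both without 1 library). In footprints, where 302 genes and 2 subunits passed, 199 genes passed with pseudocount 0.1, 157 without a filter, 173 and 1 subunit with quantile normalization, 123 and 0 subunits with median scaling, and 1 subunit with the replicate block. Leaving out 1 library gave 0 to 274 genes and 0 to 1 subunit. Signs turned for Cnot6 (-0.075 quantile, -0.49 to 1.60 without 1 library), Cnot2 (-0.78 to 0.052) and Patl1 (-0.46 to 0.020), the last 2 without 1 library. For translational efficiency, where 96 genes and 0 subunits passed, 632 genes and 1 subunit passed without a filter, 1 subunit with quantile normalization, 49 genes with the replicate block and 268 with weights per assay. Leaving out 1 library gave 0 to 203 genes and 0 to 1 subunit. Signs turned for Cnot10 (-0.25 quantile) and Tob1 (1.15 pseudocount 0.1), and without 1 library for Cnot6 (-0.040 to 2.05), Cnot8 (-0.16 to 0.63), Cnot9 (-0.011 to 2.23), Pan2 (-0.24 to 1.00), Tnks1bp1 (-0.60 to 0.16) and Tob1 (-0.88 to 0.41). In single oocytes 4 subunits were 2-fold apart, against 7 with pseudocount 0.1 and 8 by medians, and Cnot2 turned sign with median scaling (-0.13). With the Het library in place of MII WT, 360 of 580 genes with both values differed from FGO by 20 nt or more, against 120 of 224. The block changed no other call of a subunit in footprints or translational efficiency.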
